A study of Mus musculus with 4 samples.

Results

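Among 16787 colon IELs (intraepithelial lymphocytes, T cells lodged between the epithelial cells of the gut), 308 cells carried transcripts of the MHC class II genes or of Scin and met all other limits below. A cell was taken when its UMIs (unique molecular identifiers, each standing for 1 captured transcript) of Cd74, H2-Aa, H2-Ab1, H2-Eb1 and Scin summed to 3 or more, when it had 1 or more UMI of Cd3e, a chain of the CD3 complex, and when its UMIs of the epithelial genes Krt8, Krt19, Pigr and Epcam summed to less than 10. These cells are called class II/Scin IELs here, and they were chosen by measured values, so the 5 class II and Scin transcripts are given as a description only. They numbered 77 of 7603 cells in TCRβ Tcf7WT, 4 of 5785 in TCRβ Tcf7KO, 220 of 1888 in TCRγδ Tcf7WT and 7 of 1511 in TCRγδ Tcf7KO. The labels give each library as live cells from mouse colon that were CD3+ and CD8alpha+ and either TCRbeta+ or TCRgamma+, the latter read as TCRγδ from the sample titles. All 4 libraries have the strain E8IcreTcf7fl/fl, in which Tcf7, the gene of the transcription factor TCF-1, is floxed and Cre is driven from the CD8α E8I enhancer, and the genotype labels Tcf7WT and Tcf7KO alone set the groups apart. Cells were captured with the 10X Genomics 3′ kit, and the labels give neither the age of the mice nor how many gave a library. Each group was 1 library, so no difference has a replicate check, no test was made, and every interval in parentheses is an exact 95% interval that covers counting error only.

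MHC class II molecules are pairs of α and β chains that show peptides from taken-up proteins to CD4 T cells. H2-Aa and H2-Ab1 encode the chains of mouse I-A, H2-Eb1 the β chain of I-E, and Cd74 the invariant chain, which guards the peptide groove until the H2-DM molecules help to load a peptide. B cells, dendritic cells and macrophages make class II at all times and gut epithelium makes it under interferon-γ, whereas mouse T cells usually make little. Its genes are switched on by the coactivator CIITA, which binds no DNA itself and acts through factors on conserved promoter elements, among them the X box, bound by the RFX complex, and the Y box, bound by NF-Y. Scin encodes scinderin, also called adseverin, a calcium-dependent protein of the gelsolin family that severs and caps actin filaments.

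Stretches of 4 class II promoters, 3 of them chosen because they hold an X box and a Y box close together, are shown with that of Scin. Sequences come from RefSeq, build GRCm38.p6, 5′ to 3′ on the strand of the gene. Capitals mark the X box, searched as AG, any 2 bases, AC, any 1 base and GATG, and the Y box, searched as CCAAT and seen here in its inverted form ATTGG, both on either strand and without overlap.
H2-Eb1: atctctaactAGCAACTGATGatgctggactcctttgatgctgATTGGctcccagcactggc
H2-DMb1: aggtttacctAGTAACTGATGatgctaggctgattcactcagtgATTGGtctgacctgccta
H2-Eb2: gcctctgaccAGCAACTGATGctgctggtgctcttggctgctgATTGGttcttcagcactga
H2-Aa: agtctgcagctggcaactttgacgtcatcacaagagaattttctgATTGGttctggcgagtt
Scin: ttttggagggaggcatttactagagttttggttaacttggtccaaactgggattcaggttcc
The windows lie at chr17:34305765-34305826, chr17:34153086-34153147, chr17:34325532-34325593, chr17:34287855-34287916 (minus strand) and chr12:40134277-40134338 (minus strand), in that order. Of 32536 promoters in the table, each 250 bases before to 50 bases after a gene's start, 266 (0.818%) held this X box and 33.8% held CCAAT. An X box followed by an inverted Y box 15 to 30 bases further on, a spacing set after these sequences were seen, was present in 7 promoters, 3 of them those of H2-Eb1, H2-DMb1 and H2-Eb2. Not all class II promoters held both. H2-Oa held an X box and a Y box further apart, H2-Aa, H2-DMb2 and H2-Ob held a Y box and no X box of these letters, and of the 2 H2-DMa entries 1 held a Y box and the other neither motif. Promoters of Cd74, H2-Ab1 and Ciita were not analysed here, and neither motif was found in the windows of Scin or Gzmk.

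Total UMIs ranged from 6195292 to 20289960 per library and median UMIs per cell from 2431 to 4366, with the higher medians in the Tcf7KO library of each sort. The files list 13331 to 14661 genes per library, each its own set. H2-Aa is not listed for TCRβ Tcf7KO, so the rule rests on 4 genes there. Over all pairs of libraries 26 cell barcodes were shared, 2 of them with a class II/Scin IEL in one of the pair. The class II/Scin IELs had median depths of 2852, 4974, 3670.5 and 4888 UMIs (TCRβ Tcf7WT and Tcf7KO, then TCRγδ Tcf7WT and Tcf7KO), against 2424, 2860, 3099 and 4365.5 UMIs in the other cells.

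Class II/Scin IELs were 11.7% of the TCRγδ Tcf7WT library (10.2 to 13.2) and 0.463% of the TCRγδ Tcf7KO library (0.186 to 0.952), a 25.2-fold lower share in the latter. They were 1.01% of TCRβ Tcf7WT (0.800 to 1.26) and 0.0691% of TCRβ Tcf7KO (0.0188 to 0.177), a 14.6-fold lower share. This fold sets unlike rules side by side, since H2-Aa, found in 55 of the 77 TCRβ Tcf7WT cells, is not listed for TCRβ Tcf7KO. No share on the genes listed in both is given. TCRγδ Tcf7WT held 71.4% of all of them, and both Tcf7WT libraries together held 297 of the 308. With every cell thinned to 1624 UMIs and shallower cells left out (28 to 759 cells per library), the shares were 5.29% (4.24 to 6.51) in TCRγδ Tcf7WT and 0.0674% (0.00171 to 0.375) in TCRγδ Tcf7KO. After the same thinning they were 0.438% (0.296 to 0.625) in TCRβ Tcf7WT, and 0 of 5296 cells in TCRβ Tcf7KO, which allows up to 0.0696%. The order of the libraries was the same with and without thinning, and the Tcf7KO library of each sort was the deeper one per cell.

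Over all cells of a library, the transcripts that made the rule were most abundant in TCRγδ Tcf7WT. Cd74 stood at 57.1 CPM (UMIs of the gene per 1e6 UMIs of the cells; 51.3 to 63.4) there, at 12.5 CPM in TCRγδ Tcf7KO, at 8.08 CPM in TCRβ Tcf7WT and at 1.14 CPM in TCRβ Tcf7KO. H2-Eb1 stood at 68.8, 4.73, 10.4 and 2.72 CPM in the same order, and H2-Ab1 at 43.9, 4.87, 10.6 and 2.29 CPM. H2-Aa stood at 42.5, 2.09 and 6.21 CPM in the 3 libraries that list it. Scin stood at 71.2, 3.34, 1.68 and 0.163 CPM in the order of Cd74. In TCRβ Tcf7WT it was thus below each class II gene, and in TCRγδ Tcf7WT above each of them. Of the 90 Cd74 UMIs of TCRγδ Tcf7KO, 80 came from 1 cell.

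**Figure D1:**
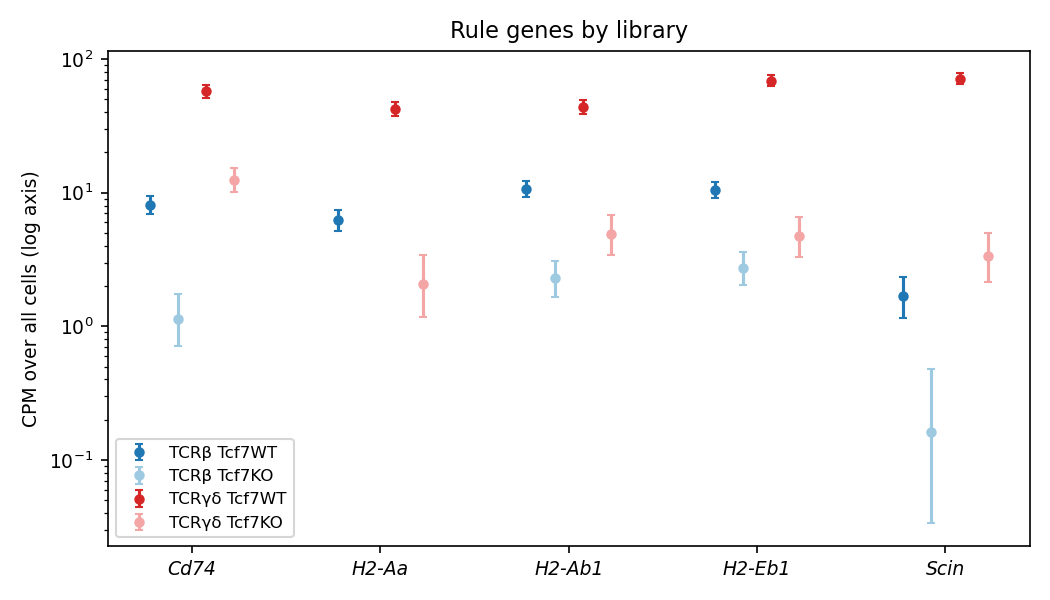
CPM of the 5 rule genes over all cells of each library, on a log axis, with exact Poisson intervals (counting error only). TCRγδ Tcf7WT is highest for all 5 genes, Scin is 71.2 CPM there and 1.68 CPM in TCRβ Tcf7WT, and H2-Aa has no value in TCRβ Tcf7KO, where it is not listed.

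The UMI sums ran through the threshold without a gap. In TCRγδ Tcf7WT, among cells with Cd3e, 1189 had none of the 5 transcripts, 260 had 1 UMI, 131 had 2, 118 had 3 to 4, 83 had 5 to 9 and 19 had 10 or more. In TCRβ Tcf7WT the same counts were 6781, 240, 51, 53, 21 and 3. At the threshold itself, with 3 UMIs, lay 69 cells of TCRγδ Tcf7WT and 36 of TCRβ Tcf7WT, against 131 and 51 cells just outside it with 2. The median sum among class II/Scin IELs was 4 UMIs in each of these libraries.

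**Figure D2:**
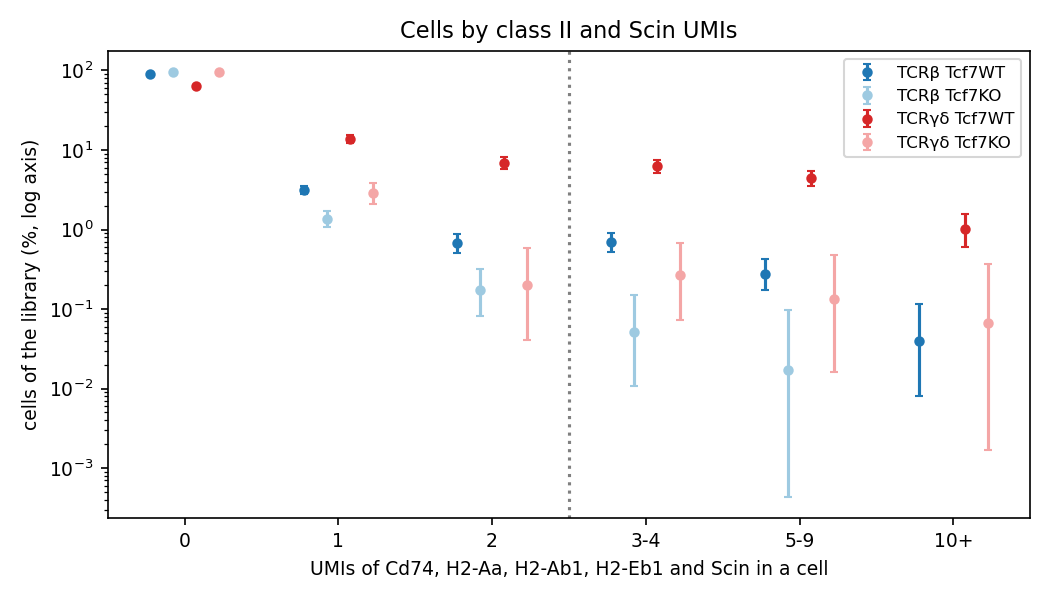
Share of each library's cells (percent, log axis) by the UMI sum of the 5 rule genes in cells with Cd3e, with exact Clopper-Pearson intervals and a dotted line at the rule's minimum of 3 UMIs. In TCRγδ Tcf7WT 1.01% of cells hold 10 or more UMIs, and in TCRβ Tcf7KO no cell does.

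By makeup, most class II/Scin IELs of TCRγδ Tcf7WT held class II together with Scin, and most of TCRβ Tcf7WT held class II alone. In TCRγδ Tcf7WT, 135 of 220 held UMIs of both class II and Scin, 81 held class II alone and 4 held Scin alone. The class II genes reached the minimum on their own in 142 cells and Scin in 37, and 54 cells reached it only by the sum of both. In TCRβ Tcf7WT, 69 of 77 held class II alone, 7 held both and 1 held Scin alone. By gene, H2-Eb1 was found in 156 of the 220 TCRγδ Tcf7WT cells, Scin in 139, H2-Aa in 120, Cd74 in 118 and H2-Ab1 in 111. In the 77 TCRβ Tcf7WT cells H2-Aa was found in 55, H2-Eb1 in 53, Cd74 in 41, H2-Ab1 in 36 and Scin in 8. Several of the genes were often seen in 1 cell. In TCRγδ Tcf7WT, 9 cells held 1 of the 5 genes, 70 held 2, 83 held 3, 44 held 4 and 14 held all 5. In TCRβ Tcf7WT, 5 cells held 1 gene, 38 held 2, 24 held 3 and 10 held 4.

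The sorted identity was checked on genes the rule did not use. In TCRγδ Tcf7WT, Trdc, the constant segment of the δ chain, was found in 209 of 220 class II/Scin IELs and 1586 of 1668 other cells, and its level was 1819 against 1965 CPM. Cd8a was found in 209 of 220, at 1451 against 1516 CPM. Cd8b1, the β chain of CD8, was found in 3 of 220, as in 18 of 1668 other cells, so nearly all of these cells showed CD8α UMIs and no CD8β UMI. In TCRβ Tcf7WT, Trac was found in 74 of 77, Trbc2 in 74 and Cd8a in 74, with Cd8b1 in 5 and Trdc in 1. Cd3e itself, of which the rule asked for 1 UMI, had a similar level inside and outside (1657 against 1660.0 CPM in TCRγδ Tcf7WT, 1351 against 1403 CPM in TCRβ Tcf7WT).

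Markers of the cell types that usually make class II were checked as well, and their part in the results was not tested. Of 5 defining genes of B cells, 6 of dendritic cells and 7 of macrophages (Cd79a, Ms4a1, Pax5, Ebf1 and Igkc, Flt3, Zbtb46, Clec9a, Cd209a, Wdfy4 and Siglech, Lyz2, C1qa, C1qb, C1qc, Csf1r, Adgre1 and Fcgr1), none is listed for TCRγδ Tcf7WT and 3 are listed for TCRβ Tcf7WT, so most have no value. In TCRβ Tcf7WT the 2 listed B cell genes gave 14 UMIs in the class II/Scin IELs, all in 1 cell, and the listed dendritic cell gene gave 0. That cell had the highest rule sum of its library, 69 UMIs, with 39 of Cd74, 13 of Igkc, 10 of Cd79b, 1 of Cd79a and 1 of Cd3e. The cell with the highest sum of TCRγδ Tcf7KO, 110 UMIs, had 80 of Cd74, 7 of Ighm, 5 of Apoe and 1 of Cd3e, and no UMI of Trdc, Trac or Cd8a, and without it the share of TCRγδ Tcf7KO is 0.397%. In TCRγδ Tcf7WT the highest sum was 31 UMIs, in a cell with 9 UMIs of Trdc and 8 of Cd3e. It also held 3 UMIs of Batf3, a gene of the dendritic cell list, 2 of Ighm and 1 of Cd79b. Over the whole list of 13 B cell markers, 9 are listed for TCRβ Tcf7WT and 6 for TCRγδ Tcf7WT, and their summed level was 566 against 589 CPM and 376 against 435 CPM, class II/Scin IELs against other cells. The dendritic cell list gave 32.6 against 39.2 CPM and 37.02 against 37.9 CPM, and the macrophage list 4.07 against 10.2 CPM and 9.87 against 10.03 CPM. None of these sums was higher in the class II/Scin IELs of the Tcf7WT libraries. Ighm and Cd37 gave most of the B cell sum, and Ighm was found in 3550 of the 7526 other cells of TCRβ Tcf7WT too. With most defining genes not listed, such sums cannot show whether a few cells of these types were present. In the 7 cells of TCRγδ Tcf7KO all the sums were higher. They were 620 against 437 CPM (B cell), 177 against 33.4 CPM (dendritic cell) and 148 against 13.1 CPM (macrophage), from 21, 6 and 5 UMIs. In the 4 cells of TCRβ Tcf7KO none was higher.

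A pair of further class II pathway genes that the rule did not use, H2-DMb1 and H2-Eb2, was higher in the class II/Scin IELs of both Tcf7WT libraries. H2-DMb1, the β chain of the peptide-loading molecule H2-DM, had the highest ratio of all ranked genes in TCRγδ Tcf7WT, at 35.8 CPM in the class II/Scin IELs (23.97 to 51.4) and 6.31 CPM in the others (4.37 to 8.82), with a log2 ratio of 2.503 (1.74 to 3.26). Its 29 UMIs lay in 29 cells, 1 in each. In TCRβ Tcf7WT H2-DMb1 had 8 UMIs in 7 cells, at 32.6 CPM (14.1 to 64.2) against 2.095 CPM, a log2 ratio of 3.96 (2.66 to 5.07), and 3.78 (2.39 to 4.95) without the cell of the highest rule sum. H2-Eb2, a second I-E β gene, stood at 90.1 CPM in the class II/Scin IELs (70.6 to 113) and 46.1 CPM in the others (40.5 to 52.2), with a log2 ratio of 0.97 (0.57 to 1.35) in TCRγδ Tcf7WT and at 93.6 against 37.6 CPM in TCRβ Tcf7WT (1.32, 0.65 to 1.91). Ifi30, a thiol reductase of the antigen-processing compartment, stood at 69.2 against 44.5 CPM in TCRβ Tcf7WT, past 1.5-fold but with an interval that held 0 (0.64, -0.15 to 1.32), and at 38.3 against 49.03 CPM in TCRγδ Tcf7WT. H2-DMa, the partner of H2-DMb1, had an interval that held 0 (0.52, -0.36 to 1.32), and Ctss, the protease that trims the invariant chain, was level (40.7 against 40.9 CPM in TCRγδ Tcf7WT). Ciita, the gene of the class II coactivator, had 3 UMIs in the class II/Scin IELs of TCRγδ Tcf7WT, which is too few to place it. Of the 19 pathway genes outside the rule, 9 had enough UMIs in TCRγδ Tcf7WT (10 or more seen or expected), of which 2 were at least 1.5-fold higher and 1, March8, lower, against 4.65% and 9.02% of all 8452 such genes. In TCRβ Tcf7WT 5 had enough, with 2 higher (H2-Eb2 and Ifi30) and 1 lower (Ctsl) against 8.85% and 10.8% of 5140 genes. The class I pathway was level: 0 of 16 genes in TCRγδ Tcf7WT and 1 of 16 (H2-T23) in TCRβ Tcf7WT were 1.5-fold higher, with list medians of 0.045 and 0.0019 on the log2 scale.

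Over all genes, class II/Scin IELs of TCRγδ Tcf7WT held more transcripts of Lgals1, Il7r, Gzmk, Havcr2 and Ctla4 than the other cells. Gzmk, Havcr2 and Cd6 were not alike over the group. They were higher in its cells with Scin than in those without, as given further below. Of 6469 genes with at least 20 UMIs seen or expected, 45 (0.696%) were at least 2-fold higher and 120 (1.86%) at least 2-fold lower. The 12 highest were H2-DMb1, Havcr2, Il7r, Lgals1, Zeb2, Rhod, Cd6, Slco3a1, Ms4a4b, Ctla4, Gzmk and Fas. Lgals1, which encodes the β-galactoside-binding lectin galectin-1, stood at 253 CPM in the class II/Scin IELs (219.5 to 290.1) and 59.2 CPM in the others (52.9 to 66.1), with a log2 ratio of 2.09 (1.83 to 2.35), with UMIs in 85 cells. Il7r, the receptor of the survival cytokine IL-7, stood at 58.00 against 13.00 CPM (2.16, 1.59 to 2.71). Gzmk, which encodes granzyme K, stood at 80.2 CPM in the class II/Scin IELs (61.9 to 102) and 25.1 CPM in the others (21.02 to 29.7), with a log2 ratio of 1.68 (1.23 to 2.12), and Havcr2, the inhibitory receptor TIM-3, at 48.1 against 8.91 CPM (2.43, 1.78 to 3.07). Ctla4, the inhibitory receptor that binds CD80 and CD86, stood at 162 against 49.8 CPM (1.700, 1.39 to 2.01), and Fas, the death receptor, at 51.8 against 19.1 CPM (1.44, 0.88 to 1.97). Inhibitory and exhaustion genes were not higher as a list: 3 of 10 measured (Havcr2, Ctla4 and Cish) were at least 1.5-fold higher and 2 (Cd101 and Nt5e) lower, against 4.65% and 9.02% of all genes, with a median of -0.25 and a summed level of 1434 against 1432 CPM. Zeb2, a repressor found in terminally differentiated effector cells, stood at 51.8 against 12.4 CPM (2.06, 1.47 to 2.64). Itgax, the integrin chain CD11c, stood at 66.6 CPM in the class II/Scin IELs (50.1 to 86.95) and 50.3 CPM in the others (44.5 to 56.7), with a log2 ratio of 0.41 (-0.04 to 0.83), an interval that held 0.

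Genes of the T cell receptor pathway were partly higher in these TCRγδ cells. Of 15 measured genes on that list, 4 were at least 1.5-fold higher and 1 lower, against 4.65% and 9.02% of all genes, with a list median of 0.13. The 4 were Cd6 (1.91), a costimulatory receptor, Thy1 (1.17), Themis (1.16), a signalling protein of thymic selection, and Lat (0.998), the adaptor below the receptor. Thy1, the surface glycoprotein Thy-1, stood at 409.7 CPM in the class II/Scin IELs (367 to 456) and 182 CPM in the others (171 to 194), with a log2 ratio of 1.17 (0.99 to 1.35). Cd2, an adhesion receptor, was the only lower one (4.94 against 17.8 CPM). Cd3d, Cd3g, Zap70 and Lck lay between -0.13 and 0.06. The interferon-γ gene Ifng stood at 231 CPM in the class II/Scin IELs (199 to 266) and 116 CPM in the others (107 to 125), with a log2 ratio of 0.999 (0.75 to 1.24), and the chemokine gene Ccl4 at 1047 against 533 CPM, of which 1 cell gave 233 of 848 UMIs. Of the genes that respond to interferon, 0 of 21 were 1.5-fold higher and 4 lower, against the same 4.65% and 9.02% of all genes, with a median of 0.22.

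NK cell receptors and their adaptors, which natural killer cells and many innate-like T cells use to sense stressed or missing-self targets, were mostly lower in class II/Scin IELs of TCRγδ Tcf7WT. Of 18 measured genes, 12 were at least 1.5-fold lower and 2 higher, with a median of -0.93, against 9.02% lower and 4.65% higher among all genes and a median of -0.02 over all genes. Klra5, a Ly49 receptor, stood at 95.02 CPM in the class II/Scin IELs (74.99 to 119) and 448 CPM in the others (430.0 to 466), with a log2 ratio of -2.24 (-2.58 to -1.91). Tyrobp, the signalling adaptor DAP12, stood at 470.2 CPM in the class II/Scin IELs (424 to 519.9) and 1707 CPM in the others (1673 to 1743), with a log2 ratio of -1.86 (-2.01 to -1.71). Klrb1a, a lectin-like receptor of the NKR-P1 family, stood at 44.4 against 183 CPM (-2.04, -2.57 to -1.57), and Fcer1g, an ITAM adaptor, at 1477 against 2226 CPM (-0.59, -0.68 to -0.51). Klrk1, the receptor NKG2D, was one of the higher pair at 64.2 against 32.9 CPM (0.97, 0.49 to 1.42), together with Klrg1, which had 13 UMIs. Ly49 genes are near-identical copies of each other, so reads can be split between them. Id3, a repressor of E-protein transcription factors, was lower at 23.4 CPM in the class II/Scin IELs (14.1 to 36.6) and 117 CPM in the others (108 to 126), with a log2 ratio of -2.31 (-3.06 to -1.66), as was Csf2, the gene of the cytokine GM-CSF, with 3 UMIs against 20.01 expected.

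The 12 lowest genes of TCRγδ Tcf7WT were mostly epithelial, led by Muc2, a mucin of goblet cells (1.23 against 62.02 CPM), with Lypd8, Mptx1 and Phgr1 among them. The other cells included 102 with 3 or more UMIs of the 4 epithelial rule genes, and the class II/Scin IELs 4, and the rule itself limits these transcripts, so the epithelial genes are given as a description. With fewer than 3 such UMIs asked of both sides, a choice made after the data were seen, the lowest were Csf2, Id3, Rbpms, Pias2, Klra5, Ptpn5, Klra7, Klrb1a, Hist1h2ak, Tyrobp, Trf and Ttll1.

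Class II/Scin IELs of TCRβ Tcf7WT held more transcripts of granzymes, of effector chemokines and of Prdm1 than the other cells. Of 2783 genes with enough UMIs, 56 (2.01%) were at least 2-fold higher and 36 (1.29%) at least 2-fold lower. The 12 highest were Kif15, Prdm1, Gzma, Runx2, Selenom, Casp1, Capg, Pmaip1, Lilr4b, Cela1, Gzmb and Stk32c. Gzma, which encodes granzyme A, stood at 9137 CPM in the class II/Scin IELs (8763 to 9523) and 1564 CPM in the others (1547 to 1581), with a log2 ratio of 2.55 (2.48 to 2.61), its 2245 UMIs in 30 of the 77 cells. Gzmb, the gene of granzyme B, stood at 3614 against 844 CPM (2.098, 1.999 to 2.195), and Ccl5, a chemokine of effector T cells, at 29812 against 8005 CPM (1.897, 1.86 to 1.93). Prdm1, the gene of Blimp-1, a transcription factor of effector and tissue-resident T cells, stood at 109.9 CPM in the class II/Scin IELs (72.4 to 159.9) and 12.5 CPM in the others (10.97 to 14.1), with a log2 ratio of 3.14 (2.51 to 3.71), with 27 UMIs in 17 cells. Runx2, a Runt-family factor, stood at 118 against 20.2 CPM (2.55, 1.95 to 3.09). Capg, an actin-capping protein of the gelsolin family like scinderin, stood at 159 against 32.98 CPM (2.27, 1.76 to 2.73). Of the actin severing and capping list, 1 of 9 measured genes (Capg) was at least 1.5-fold higher and 2 were lower, against 8.85% and 10.8% of all genes, with a median of -0.12, so the share higher was near that of all genes. Casp1, the inflammatory caspase, and Pmaip1, the BH3-only death protein NOXA, stood at 102 against 20.7 CPM and 102 against 21.2 CPM. Of the cytotoxic granule list, 2 of 11 measured genes were at least 1.5-fold higher, Gzma and Gzmb, and 0 lower. Of the cytokine and chemokine list, 4 of 9 were higher, Ccl5, Ccl4, Il2 and Ccl3, and 1, Ltb, lower, against the same 8.85% and 10.8% of all genes. Itgax stood at 69.2 CPM in the class II/Scin IELs (40.3 to 111) and 12.2 CPM in the others (10.7 to 13.9), with a log2 ratio of 2.501 (1.698 to 3.21), 1 UMI in each of 17 cells. Gzmk had 5 UMIs in these cells, at 20.3 against 2.195 CPM (3.21, 1.52 to 4.54).

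Genes of naive and memory T cells were lower in the TCRβ Tcf7WT cells. Of 9 measured, 7 were at least 1.5-fold lower and 0 higher, with a median of -1.47, against 10.8% lower and 8.85% higher over all genes and a median of -0.02. Satb1, a chromatin organiser of naive T cells, stood at 28.5 CPM in the class II/Scin IELs (11.5 to 58.7) and 148 CPM in the others (143 to 154), with a log2 ratio of -2.38 (-3.69 to -1.33). Klf2, which keeps homing receptors on, stood at 244 against 677 CPM (-1.47, -1.86 to -1.11), and Tcf7 at 73.3 against 149 CPM (-1.02, -1.78 to -0.36). Lef1 and Ly6c2 had 1 UMI each. Cd28, the main costimulatory receptor, had 2 UMIs against 22.96 expected (-3.52, -6.57 to -1.67), and Myc stood at 16.3 against 79.2 CPM. Tissue residency genes went the other way, with 6 of 15 at least 1.5-fold higher and 0 lower, against the same shares of all genes. Ccr9, the receptor that guides T cells to the gut (1.47), Cxcr6 (0.81) and Itgae, the chain CD103 that binds E-cadherin (0.76), were among them beside Prdm1. The haemoglobin genes Hba-a2 and Hbb-b1 are among the 12 lowest, and 1 other cell held 1812 of 1813 and 2541 of 2543 of the other cells' UMIs of them. Of the cell cycle list, 5 of 11 genes were at least 1.5-fold higher and 0 lower, against 8.85% and 10.8% of all genes. The list had 387 UMIs in the class II/Scin IELs against 293 expected, and 1 cell gave 135 of them. A class II/Scin IEL held 20 of the 25 Mki67 UMIs. Without that cell the log2 ratio was 0.17 for Mki67, 0.13 for Stmn1, 0.71 for Top2a and 1.21 for Tyms, and Birc5 had no UMI.

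Of the NK receptor list in TCRβ Tcf7WT, 4 of 14 were at least 1.5-fold higher and 2 lower, against 8.85% and 10.8% of all genes, with a median of 0.25, so the share lower was near that of all genes. Tyrobp was higher (0.61 against -1.86 in TCRγδ Tcf7WT), though in the 24 TCRβ cells with 5 or more rule UMIs it stood at -0.38, and Klra5 had an interval that held 0 (-0.34, -0.77 to 0.06). Klf2 and Il7r also went apart between the sorts, Klf2 at -1.47 and 0.97 and Il7r at 0.08 and 2.16, TCRβ first. The naive and memory list, with a median of -1.47 in TCRβ Tcf7WT, had a median of 0.46 in TCRγδ Tcf7WT. There 4 of its 8 measured genes were at least 1.5-fold higher and 2 lower, against 4.65% and 9.02% of all genes. These differences between the sorts were not tested, since each sort is 1 library.

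**Figure D3:**
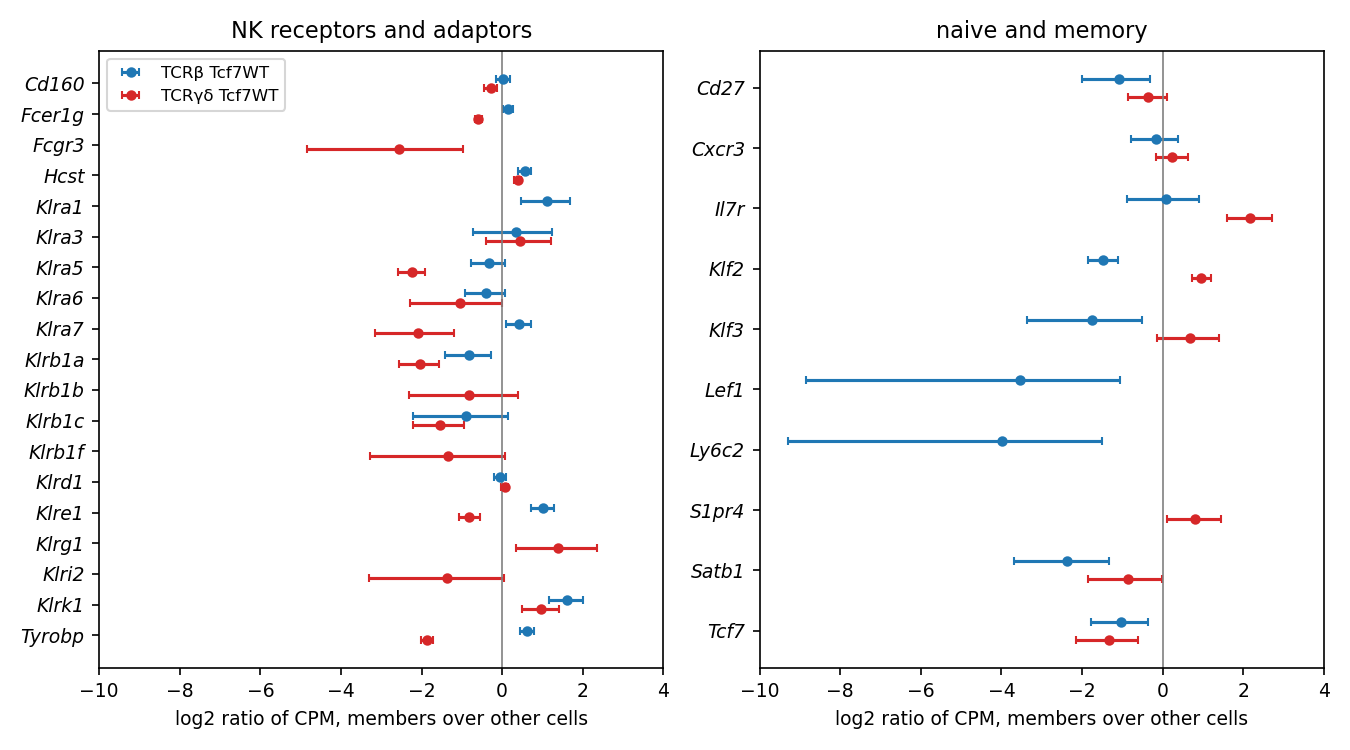
Log2 ratio of CPM (class II/Scin IELs, called members in the axis, over the other cells of the library) for measured genes of the NK receptor list, left, and of the naive and memory list, right, with exact intervals for counting error, TCRβ Tcf7WT in blue and TCRγδ Tcf7WT in red. Klra5, Klrb1a and Tyrobp lie near -2 in red, and Satb1 and Klf2 lie under 0 in blue, while Klf2 lies above 0 in red.

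Genes apart the same way in both Tcf7WT libraries were counted beside the shares of each library alone. At least 2-fold higher were 2.01% of 2783 genes in TCRβ Tcf7WT and 0.696% of 6469 in TCRγδ Tcf7WT. At least 2-fold lower were 1.29% and 1.86%. The overlap was not tested against these shares. Of 2636 genes measured in both, 3 were at least 2-fold higher in both, namely Lgals1, Ctla4 and Kif15, and 5 were at least 2-fold lower, namely Id3, Klf4, Tnfsf8, Kit and Tcf7. Lgals1 stood at 219.8 against 66.6 CPM in TCRβ Tcf7WT (1.72, 1.302 to 2.12), close to its ratio in TCRγδ Tcf7WT, and Ctla4 at 171 against 53.9 CPM (1.66, 1.18 to 2.11). Kif15, a mitotic kinesin, had 20 UMIs in 12 cells of TCRβ Tcf7WT (3.62) and 24 UMIs in 24 cells of TCRγδ Tcf7WT (1.15). Klf4, a quiescence factor, stood at -1.22 and -1.996, and Kit, the stem cell factor receptor, at -1.15 and -1.41, TCRβ first. Tcf7 itself stood at 19.7 against 49.6 CPM in TCRγδ Tcf7WT (-1.33, -2.16 to -0.602), so that within both Tcf7WT libraries the class II/Scin IELs held less Tcf7 transcript than the other cells. Ranked by the smaller of both ratios, Ccl4, H2-Eb2, Klrk1, Runx2, Selenom, Gzma and Lilr4b came next at the high end and Satb1, Klrb1a, Bcl2l11, Arhgap5 and Ctla2b at the low end. Gzma, 2.55 in TCRβ Tcf7WT, was 0.700 in TCRγδ Tcf7WT, at 18736 against 11533 CPM.

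**Figure D4:**
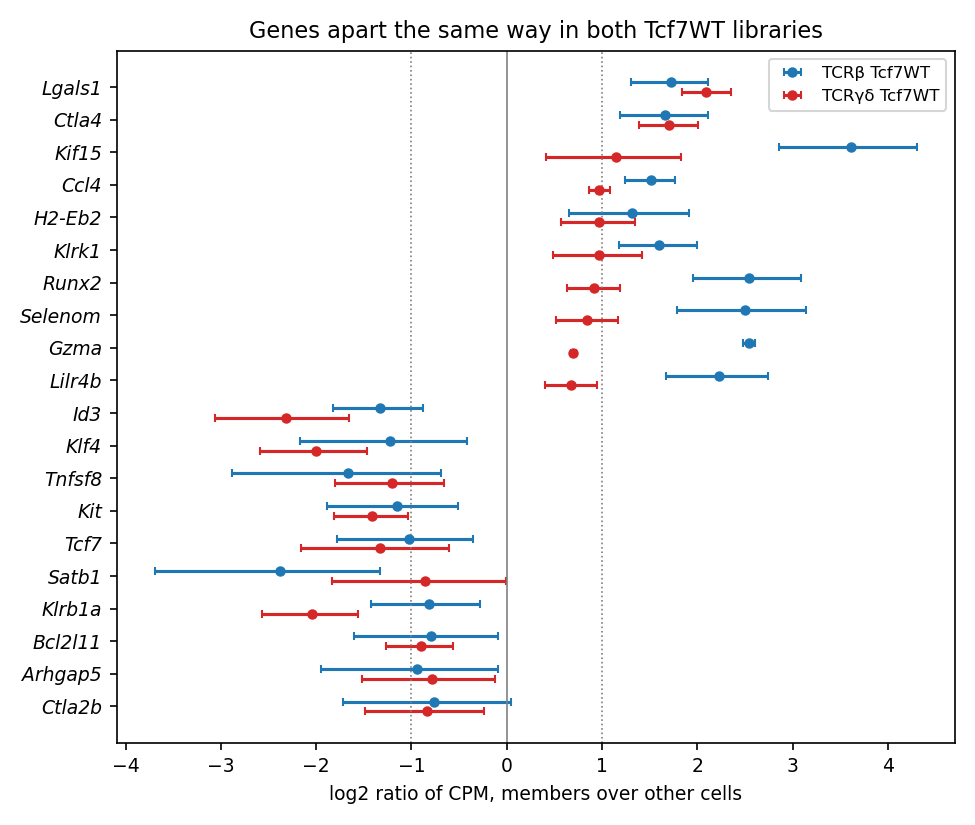
Log2 ratio of CPM, class II/Scin IELs (called members in the axis) over other cells, for the 10 highest and 10 lowest genes by the smaller ratio of both Tcf7WT libraries, with exact intervals and dotted lines at 2-fold. Lgals1 and Ctla4 lie beyond 2-fold in both, with intervals that overlap between the libraries.

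Several of these genes also differed with the number of class II UMIs. Cells with 3 or more such UMIs are class II/Scin IELs by the rule, so their bins describe the same cells again. When TCRγδ Tcf7WT cells with Cd3e were split by their class II UMIs into those with 0, 1, 2, 3 to 4 and 5 or more (1268, 270, 120, 85 and 57 cells, median depths 3137.5 to 3751 UMIs), Scin stood at 26.2, 133, 193, 249 and 174 CPM. Scin was thus already higher in cells with a single class II UMI, which class II alone does not bring into the rule. H2-DMb1 stood at 4.61, 10.1, 23.2, 39.95 and 50.2 CPM, Lgals1 at 41.5, 139, 199.8, 264 and 224 CPM and Thy1 at 155, 307, 360.1, 359.6 and 498 CPM. H2-DMa did not run the same way, at 13.6, 19.1, 20.9, 18.4 and 4.57 CPM. Klra5 was lower in every bin than at 0 UMIs, at 529, 184, 107, 104 and 151 CPM, and Klrb1a at 204, 109.9, 92.9, 61.5 and 50.2 CPM. In TCRβ Tcf7WT the same split gave 6788, 236, 51, 52 and 22 cells. Gzma stood at 1376, 6585, 8308, 7468 and 8646 CPM there, Ccl5 at 7530.3, 18161, 25536, 28413 and 30059 CPM and Itgax at 11.02, 40.6, 59.1, 75.4 and 51.7 CPM. Satb1 was lower from bin to bin, at 149, 85.2, 45.98, 31.4 and 12.9 CPM, and H2-DMb1 stood at 2.04, 2.62, 19.7, 18.8 and 64.6 CPM. Gzma and Ccl5 were thus already higher in cells with 1 class II UMI, while Lgals1 in TCRβ Tcf7WT stood at 65.5, 74.7, 65.7, 151 and 375 CPM and was higher from 3 UMIs on. Split by Scin instead, class II UMIs were found in 23.2% of the 1549 TCRγδ Tcf7WT cells with no Scin UMI (21.2 to 25.4), 60.4% of 139 with 1 (51.8 to 68.6), 73.3% of 75 with 2 (61.9 to 82.9) and 89.2% of 37 with 3 or more (74.6 to 96.97). Median depths of these groups ran from 3152 to 3983 UMIs, and the level of class II was 157, 489, 670.2 and 629 CPM.

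**Figure D5:**
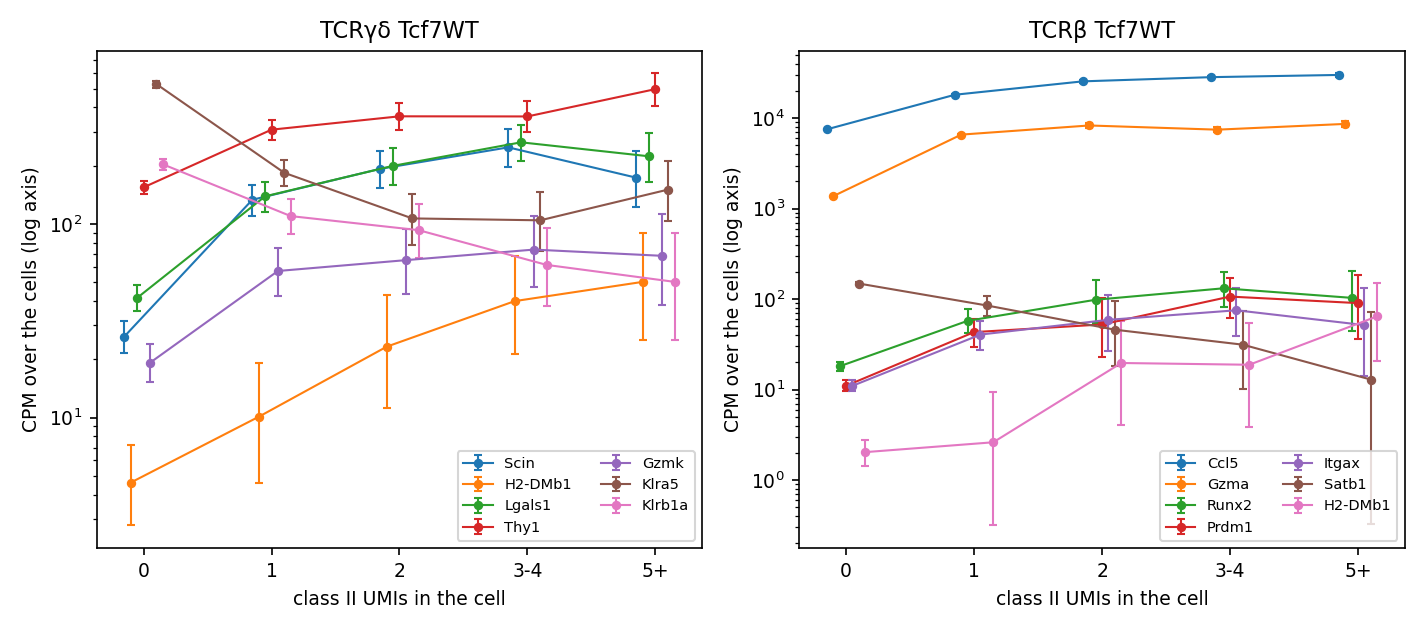
CPM (log axis) of selected genes in cells with Cd3e, by the number of class II UMIs (Cd74, H2-Aa, H2-Ab1 and H2-Eb1) in the cell, with exact Poisson intervals and no point where a gene had no UMI. In TCRγδ Tcf7WT, left, H2-DMb1 is higher from bin to bin, Scin is higher up to 3 to 4 UMIs (249 CPM) and 174 CPM in the last bin, and Klra5 is lower in every bin than at 0 UMIs, while in TCRβ Tcf7WT, right, Gzma and Ccl5 are higher in every bin than at 0 UMIs and Satb1 is lower.

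Cells with and without Scin were set side by side within the TCRγδ Tcf7WT group. The split uses a transcript of the rule, and cells without Scin had to reach the minimum by class II alone, so class II was higher in them by construction (Cd74 at 538 against 246 CPM) and the values are a description. The 139 with Scin held Gzmk at 107 CPM (80.7 to 140) and the 81 without held it at 33.6 CPM (16.1 to 61.9). Cd6 stood at 83.8 CPM (60.6 to 113) against 16.8 CPM (5.46 to 39.3), Havcr2 at 64.3 CPM (44.3 to 90.3) against 20.2 CPM (7.41 to 43.9), while Klra5 stood at 31.2 CPM (17.8 to 50.6) against 205 CPM (157 to 264) and Klrb1a at 17.5 CPM (8.02 to 33.3) against 90.9 CPM (59.9 to 132). Lgals1 (253 and 252 CPM), Ctla4 (160 and 165 CPM) and Il7r (58.5 and 57.2 CPM) were level between them. Median depth was alike, at 3716 and 3652 UMIs.

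Receptor segments were left out of the ranking and looked at apart, after their values were seen. In TCRβ Tcf7WT, Trav3-3, a variable segment of the α chain (GRCm38 chr14:53665929-53666506), had 22 UMIs in 12 of 77 class II/Scin IELs and was found in 32 of 7526 other cells. Put the other way, 12 of the 44 cells with Trav3-3 (27.3%, 14.96 to 42.8) were class II/Scin IELs, against 0.860% of cells without it. In TCRβ Tcf7KO, 31 cells had Trav3-3 and none of them a UMI of the rule genes (0 CPM, 0 to 28.2). The 5754 cells without Trav3-3 held the rule genes at 6.36 CPM, inside that interval, and 0.0695% of them were class II/Scin IELs. So few cells cannot show whether Trav3-3 went with the rule genes in that library. Trav3 genes are near-identical copies, so which copy was read is uncertain. In TCRγδ Tcf7WT, Trdv5 and Trdv2-2 were level, while Tcrg-V7 had 5 UMIs against 17.9 expected (log2 ratio -1.84, -3.49 to -0.58) and Trav15d-2-dv6d-2 had 4 against 19.4 expected (-2.28, -4.18 to -0.89). Trbc1, a constant segment of the β chain locus, was lower in both libraries (-1.08, -1.40 to -0.79 in TCRβ Tcf7WT and -0.88, -1.05 to -0.71 in TCRγδ Tcf7WT). Trbc2, the other constant segment of that locus, was not (-0.16 and 0.27).

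The Tcf7KO libraries held too few class II/Scin IELs for a ranking. In the 7 of TCRγδ Tcf7KO, Thy1 stood at 443 CPM (248 to 731) against 34.96 CPM in the other cells, Lgals1 at 148 CPM (47.96 to 345) against 6.43 CPM and Ifng at 177 CPM (65.04 to 386) against 28.2 CPM. Gzmk had 3 UMIs in 2 of the 7 cells, a log2 ratio of 7.72 (4.82 to 10.6), and Itgax had 4 UMIs (2.26, 0.37 to 3.65). Klra5 had 3 UMIs, at 88.6 against 744 CPM (-3.07, -5.35 to -1.52). H2-DMb1 had 3 UMIs, 2 of them in the cell of 110 rule UMIs. Gzma and Gzmb stood at 13441 against 18954 CPM (-0.496, -0.63 to -0.36) and 4874 against 7824 CPM (-0.68, -0.91 to -0.46). Without the cell of 110 rule UMIs these ratios were -0.40 and -0.60. In TCRγδ Tcf7WT the ratios were 0.700 and 0.32. Of the 455 Gzma UMIs in the 7 cells, 1 cell held 164, and the intervals do not cover such spread between cells. Il7r and Cd6 had no UMI, with 0.109 and 0.114 expected, too few to place them. Without the cell of 110 rule UMIs, Thy1 stood at 475 CPM and Cd74 at 127 CPM in place of 2481 CPM. In the 4 of TCRβ Tcf7KO, Ccl5 stood at 30687 against 12548 CPM and Gzma, with UMIs in 2 cells, at 9525 against 4470 CPM.

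The cells outside the rule showed several of these genes at unlike levels in the genotypes too, and genotype and library cannot be told apart. Among other cells of the TCRγδ sort, Thy1 stood at 182 CPM in Tcf7WT and 34.96 CPM in Tcf7KO, Lgals1 at 59.2 and 6.43 CPM, Gzmk at 25.1 and 0.420 CPM, Ifng at 116 and 28.2 CPM and H2-DMb1 at 6.31 and 2.94 CPM. Each of these 5 genes was also higher in class II/Scin IELs than in the other cells within TCRγδ Tcf7WT. Not every gene higher there was lower in Tcf7KO. Among the same other cells Ctla4 was level at 49.8 and 51.6 CPM, and Gzma stood at 11533 and 18954 CPM, Tcf7WT first. In the TCRβ sort Ctla4 stood at 53.9 and 94.3 CPM and Gzma at 1564 and 4470 CPM. Thy1 stood at 345 and 239 CPM there and Lgals1 at 66.6 and 43.8 CPM. Tcf7 itself stood at 149 and 107 CPM in the TCRβ sort and at 49.6 and 14.5 CPM in the TCRγδ sort.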

How the data were processed

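Single-cell RNA-seq libraries of sorted mouse colon IELs were read as the deposited counts, which per the file headers and values are whole UMI numbers per gene and cell. Seurat 3.0.0 and the builds GRCm38 and mm10 are named in the submitters' processing notes, and the filters applied to cells and genes before deposit are not given in the sources used here. All deposited cells were kept. Class II/Scin IELs were found by the UMI rule, their UMIs were summed per library, and the sums were divided by all UMIs of the same cells to give CPM. With 1 library per group no test was run. CPM carry exact Poisson intervals, shares exact Clopper-Pearson intervals and ratios exact conditional intervals, all at 95% and for counting error only, since cells of 1 library are not replicates. Genes were ranked where 20 or more UMIs were seen in the class II/Scin IELs or expected from the other cells, and for the high end where 5 or more cells held a UMI. The named genes are the rule genes, Cd3e, Gzmk, Itgax, the 12 highest and 12 lowest of each Tcf7WT library, the 10 highest and 10 lowest over both, and up to 4 genes of each of 31 lists with 10 or more UMIs. The ranking skipped receptor and immunoglobulin segments, Xist, Y-linked genes and Gm or Rik models. Other genes named were chosen after their values were seen. The cells and lists were chosen with earlier results of these data known. Scrublet (scanpy 1.11.5) marked 1, 1, 3 and 6 cells and none of the class II/Scin IELs, under 0.5% of the cells, so doublets were not effectively called or removed. Ratios and intervals were computed with numpy 2.4.6, scipy 1.17.1 and pandas 2.3.3, and the interval code was tested on simulated data. TMM factors (edgeR 4.0.16) and DESeq2 1.42.0 size factors served as alternatives for scaling only.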

Additional observations from a re-analysis of the deposited data

Results flagged for a closer look

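In 6 genes the class II/Scin IELs lay at least 2-fold above the other cells in one Tcf7WT library and at least 2-fold below them in the other. The difference between the sorts was not tested, since each is 1 library. Log2 ratios of CPM are given for TCRβ Tcf7WT first. Cela1, an elastase-like protease, stood at 2.13 and -1.05. Stk32c, a kinase, stood at 2.05 and -1.49. Hist1h2ah, a histone gene, stood at 1.19 and -1.08, and without cells holding 2 or more UMIs of other cell types' markers it was -1.47 in TCRβ Tcf7WT. Rgs10, a regulator of G protein signalling, ran the other way at -1.84 and 1.42. Mki67, the proliferation marker Ki-67, stood at 2.43 and -1.15, and Stmn1, a microtubule regulator of dividing cells, at 1.42 and -1.46. In TCRβ Tcf7WT, 1 cell held 20 of 25 Mki67 UMIs and 14 of 23 Stmn1 UMIs, and without it the ratios were 0.17 and 0.13.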

How the results depend on the processing

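Each group is 1 library, so precision is limited by counting and no value carries the spread between mice. No paired analysis was possible because the labels carry no replicate numbers. The share of class II/Scin IELs follows the rule. With 2 or more UMIs it was 1.68% in TCRβ Tcf7WT, 0.242% in TCRβ Tcf7KO and 18.6% in TCRγδ Tcf7WT, and with 5 or more 0.316%, 0.0173% and 5.40%. Scin alone gave 0.0263%, 0%, 1.96% and, in TCRγδ Tcf7KO, 0.0662%, and class II alone gave 7.52% in TCRγδ Tcf7WT. Thinned cells gave 0.438%, 0%, 5.29% and 0.0674%. Without cells that held 2 or more UMIs of B cell, dendritic cell, macrophage or plasma cell markers the share was 0% in TCRβ Tcf7KO. That is 0 of the 2009 cells kept there, which allows up to 0.183% and so covers the main share of 0.0691%. The B cell list alone gave 2 or more UMIs in 49.0% of the other cells of that library. This last setting keeps 3263 cells of TCRβ Tcf7WT and 914 of TCRγδ Tcf7WT. Genes at least 2-fold higher and lower in TCRβ Tcf7WT were 20 and 18 with 5 or more UMIs (802 genes measured) and 25 and 15 without cells with other-type markers. In TCRγδ Tcf7WT they were 19 and 75 without cells with other-type markers, and 74 were lower with 5 or more UMIs. Fewer genes reach the UMI minimum in these settings, and the genes called were in part other ones. With 5 or more UMIs in TCRβ Tcf7WT, 11 of the 20 higher and 1 of the 18 lower genes were called in the main setting too. Without cells with other-type markers these were 17 of 25 and 9 of 15. In TCRγδ Tcf7WT they were 10 of 19 and 37 of 75 without such cells, and 46 of the 74 lower with 5 or more UMIs. With no filter on low counts, genes at least 2-fold higher and lower were 3646 and 994 in TCRβ Tcf7WT and 785 and 1244 in TCRγδ Tcf7WT. With epithelial UMIs under 3 on both sides the ratio changed sign for Klk1 (0.045), Lypd8 (0.21), Sycn (0.17) and the median of the epithelial list (0.31) in TCRγδ Tcf7WT, and without cells with other-type markers for Muc2 (0.092) and, in TCRβ Tcf7WT, for Hist1h2ah (-1.47). With 5 or more rule UMIs it changed sign for Tyrobp in TCRβ Tcf7WT (-0.38) and Gzmf in TCRγδ Tcf7WT (-0.66). The cause was not tested. Leaving out the cell of the highest rule sum of each library, chosen after seeing the data, moved no share or count by over 1.5 times. TMM and DESeq2 scaling shifted all ratios by at most 0.03 on the log2 scale. Gene counts for the Tcf7KO libraries were not run, with 4 and 7 cells.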

Other observations

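Gzmk, Cd6 and Klra5, which differed with Scin within the group, also differed with it outside the rule. Lgals1, Ctla4 and Il7r, level within the group, are not given here. In TCRγδ Tcf7WT, 118 other cells held Scin below the minimum of 3 UMIs, and in them Gzmk stood at 104 CPM (75.9 to 140) against 18.3 CPM (14.8 to 22.5) in the 1550 other cells without Scin. Cd6 stood at 61.7 CPM (40.3 to 90.4) against 11.9 CPM (9.05 to 15.3), and Klra5 at 47.5 CPM (29.0 to 73.3) against 482 CPM (463 to 501). The rule caps class II in these cells, so no class II gene is compared. Median depths were 2992.5 and 3115.5 UMIs.

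Gzmf, a granzyme gene, had 64 UMIs in the class II/Scin IELs of TCRγδ Tcf7WT, 62 of them in 1 cell. Among rarer receptor segments of the same library, Trbv15 had 8 UMIs against 1.66 expected (log2 ratio 2.27, 0.76 to 3.72) and Trav16 had 14 against 4.66 expected (1.59, 0.56 to 2.54). These segments were chosen after their values were seen.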
